A study of Mus musculus with 12 samples.

Results

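The genes described here are the numbered zinc finger protein genes, those whose mouse symbol is Zfp followed by a number. Of 16920 genes in the deposited tables, 351 carried such a symbol once Zfp36, the RNA-binding protein tristetraprolin, was left out. The 214 members were chosen by their summed counts, at least 600 over the 12 libraries, so their abundance is a description and not a finding. Zfp507 and Zfp189, with 606 summed counts each, and Zfp563, with 611, lay just inside that minimum, and Zfp438 with 593, Zfp7 with 587 and Zfp788 with 587 lay just outside it. The libraries were single-end RNA-seq of elicited peritoneal macrophages, 3 in each of 4 groups: wild-type (WT) cells given PBS or LPS at 1 µg/mL for 6 h, and cells labelled Ythdf1 knockout given the same, all cultured overnight first. Both kinds of mice were on the C57BL/6 background, and the knockout had been made with CRISPR/Cas9. The series text names a starch broth as the elicitation agent and the study's methods name thioglycollate. LPS is a bacterial cell wall lipid that macrophages sense through TLR4, and YTHDF1 is a reader of N6-methyladenosine on mRNA.

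Most of these genes encode C2H2 zinc finger proteins, in which a pair of cysteines and a pair of histidines hold a zinc ion and each finger reads a few bases of DNA. Many carry an N-terminal KRAB box, which recruits the corepressor TRIM28 and through it histone and DNA methylation, and such KRAB zinc finger proteins are known above all for silencing retroelements and guarding imprints. Their genes arose by repeated tandem duplication and lie in clusters, so that sequences of neighbours are alike. Others in the list have no KRAB box and act as ordinary transcription factors, or handle RNA, ribosomes or ubiquitin. C2H2 fingers were counted in the coding sequence of 213 members, with a median of 10 and a range of 0 to 36. A KRAB-like stretch was matched by pattern in 104 of those 213. The first finger of 4 members is shown as coding DNA, with the codons for its cysteines and histidines in capitals, to let the shared frame and the near identity of the paralogs Zfp992 and Zfp991 be seen.
Zfp811: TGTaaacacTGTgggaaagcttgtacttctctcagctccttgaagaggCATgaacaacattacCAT
Zfp281: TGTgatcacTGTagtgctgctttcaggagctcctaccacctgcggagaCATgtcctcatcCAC
Zfp992: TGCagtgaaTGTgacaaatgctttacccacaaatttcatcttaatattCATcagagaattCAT
Zfp991: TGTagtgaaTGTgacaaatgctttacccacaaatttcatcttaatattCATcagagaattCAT

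The targeted gene does not check the genotype labels. Ythdf1 stood at 43.6, 45 and 41.9 CPM (the count relative to library size, with sizes scaled by the trimmed mean of M values, TMM) in WT PBS libraries and at 55.4, 58.1 and 58.1 in PBS libraries labelled knockout. After LPS it stood at 212, 198 and 194 CPM in WT and 196, 192 and 205 CPM in libraries labelled knockout. Its mRNA was higher under the knockout label in PBS (log2 fold change 0.40 ± 0.058 SE, adjusted p = 0.000133) and not called different after LPS (adjusted p = 0.724). The level of the targeted mRNA thus does not check the label, and the libraries are called KO-labelled throughout.

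Each library held 21546274 to 22017005 counts. The 10 macrophage markers summed to 17596 to 21037 CPM in every group, and markers of other cell types moved with the groups. Of the B cell genes described here, Cd22 stood at 109–114 CPM in WT PBS, 73.3–89.8 in WT LPS, 100.5–102 in KO-labelled PBS and 47.4–53 in KO-labelled LPS, Cd79b stood at 1.32–1.52, 0.173–0.228, 0.875–1.58 and 0.184–0.367 CPM in the same order, and Cd79a, Pax5, Ms4a1, Blk and Fcmr were at or near 0. Of the mast cell genes, Cpa3, Cma1, Mcpt4 and Tpsb2 were at or near 0 and Kit stood at 0.608–0.795, 1.01–1.2, 0.175–0.421 and 2.82–3.44 CPM in that order. Of 8 T cell genes, 4 were detected, with Cd3g, Cd3e and Cd3d at or near 0, and their sum was 1.98 to 3.11 CPM in PBS libraries, 10.8 to 14.1 CPM in WT LPS and 5.46 to 6.12 CPM in KO-labelled LPS. The T cell genes did not move alike with LPS: Lck went from 0.0358–0.143 to 8.39–13 CPM in WT and from 0.07–0.105 to 3.67–4.22 CPM in KO-labelled cells, Cd4 was lower under both labels (-0.96, adjusted p = 0.0141, and -1.29, adjusted p = 0.00953), and Cd8a was not called. Of the neutrophil genes, with S100a9, Retnlg, Elane and Mpo at or near 0, the sum was 4.003 to 5.63 CPM in PBS and 7.87 to 16.02 CPM in LPS libraries. WT LPS replicate 1 stood apart from replicates 2 and 3, with a mean chi-square per gene of 33.6 and 26.2 against 3.09 between those 2 (16.95 at most between libraries of another group), so counts that use WT LPS are also given without it. Of the 28 calls of named members that use WT LPS, 28 kept their direction and their call without that library. The 6 skeletal muscle genes summed to 17.8 to 35.6 CPM in WT libraries, to 16.1, 20.4 and 0.354 CPM in KO-labelled PBS replicates 1, 2 and 3, and to 0.429 to 0.684 CPM in KO-labelled LPS. In PBS KO-labelled replicate 3 was thus low alone and none of the 6 was called between labels, while after LPS each of the 6 was called lower in KO-labelled libraries. The 5 fibroblast genes, of which Lum was at or near 0, summed to 66.0 to 120.5 CPM in WT and 29.2 to 64.3 CPM in KO-labelled libraries. The 6 mesothelium genes summed to 7.69 to 8.83 CPM in WT PBS and 4.61 to 5.99 CPM in KO-labelled PBS, without overlap, and to 7.62 to 9.22 and 6.37 to 8.39 CPM after LPS. Among them Wt1 was lower in KO-labelled libraries in PBS (-1.61, adjusted p = 0.000141) and after LPS (-1.46, adjusted p = 0.000718), and Upk3b in PBS (-1.11, adjusted p = 0.0467). The mesothelium genes did not differ alike: Krt18 (0.05 in PBS and 0.26 after LPS), Krt19 (0.13 and -0.07) and Lrrn4 (-0.475 and 0.08) were not called between labels. The eosinophil gene Siglecf was lower in KO-labelled LPS libraries (-0.86, adjusted p = 0.022). The part of these cell types in the differences between groups was not tested. In these bulk samples, fewer cells of a type and less RNA per cell cannot be told apart.

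Averaged over the 12 libraries, the members spanned 2.01 to 155.7 CPM with a median of 8.10 CPM, and 81 exceeded 10 CPM. Per kilobase of transcript, the highest levels were those of Zfp972 (118.8 CPM per kb on a 472-base transcript) and Zfp207 (99.7 CPM per kb), a microtubule-binding protein that assists the spindle checkpoint. Next came Zfp384 (25.4 CPM per kb), Zfp513 (22.0 CPM per kb), and Zfp740 and Zfp800 (21.9 CPM per kb each). Taken as 1 pool, the members held 0.317% to 0.331% of counts in WT PBS, 0.230% to 0.232% in WT LPS, 0.372% to 0.390% in KO-labelled PBS and 0.248% to 0.260% in KO-labelled LPS.

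The response to LPS was asked first. In WT macrophages 101 of the 214 members fell and 55 rose after LPS by edgeR's quasi-likelihood test at an adjusted p under 0.05. That is 47.2% and 25.7% of the members, against 40.2% of all 12064 genes tested that fell and 36.5% that rose. The median log2 fold change was -0.26 over the members and -0.05 over all genes tested. In KO-labelled macrophages 104 fell and 58 rose, or 48.6% and 27.1%, beside 41.1% and 38.8% of all genes, with medians of -0.20 and -0.04. Of the 214, 53 held under 300 counts in the 6 LPS libraries and 2 in the 6 PBS libraries and so passed the minimum of 600 mainly through the other treatment, and the shares of rises and falls are given as a description. All 214 members passed the filter on low counts. Without WT LPS replicate 1 the WT counts were 99 and 52, with a median of -0.24. Calls with a change over 1 on the log2 scale were made in 39 members that fell and 18 that rose in WT, 18.2% and 8.41% of the members beside 19.2% and 17.2% of all genes. In KO-labelled cells these were 36 and 18, or 16.8% and 8.41% beside 22.4% and 19.3%. Of the members that rose, 49 did so under both labels, which is 89.1% of those that rose in WT and 84.5% of those that rose in KO-labelled cells. Of the members that fell, 91 were shared, 90.1% and 87.5%, none moved in opposite directions, and 36 were called in neither. The overlap between labels was not counted over all genes, so these numbers are a description and no result about the members. Across the 214 members the fold changes under the labels had a Pearson r of 0.96, given as a description, since the points share libraries and depth and genes are not replicates.

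**Figure D1:**
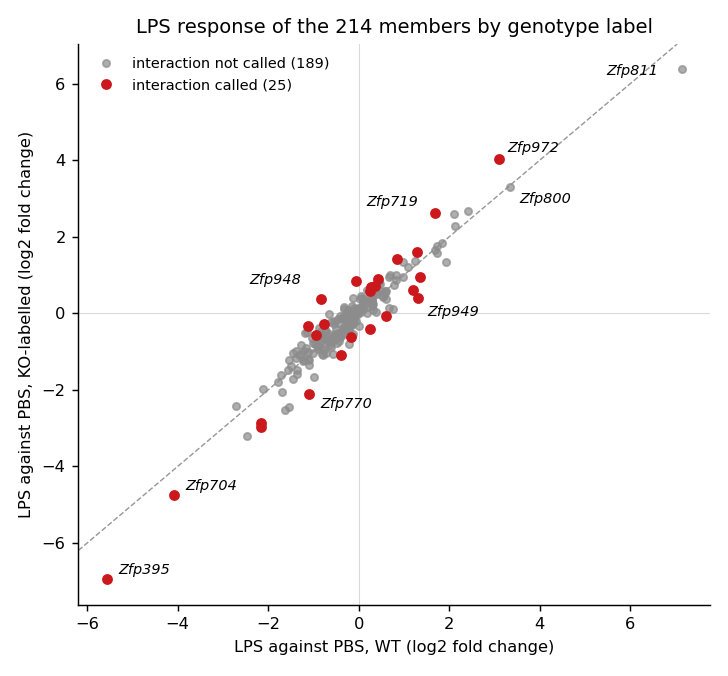
Each point is 1 of the 214 members, with its log2 fold change (LPS over PBS, TMM scaling) in WT on the x axis and in KO-labelled macrophages on the y axis; the dashed line marks equal change and red points are the 25 members called by the interaction test. Zfp811 lies at the top right, Zfp395 and Zfp704 at the bottom left, and most members lie close to the line.

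A group of 6 members rose in WT under each of the 5 ways of scaling tried: Zfp811, Zfp800, Zfp972, Zfp619, Zfp281 and Zfp658. Zfp811, a KRAB zinc finger gene with 13 fingers, was almost silent at rest, with 0.0362, 0 and 0.0715 CPM in WT PBS and 0.07, 0.0351 and 0.106 CPM in KO-labelled PBS. After LPS it stood at 4.8, 6.32 and 6.43 CPM in WT and 5.83, 6.61 and 6.47 CPM in KO-labelled cells, far outside the PBS range. The 3 WT PBS libraries together held 3 of its counts against 308 after LPS, a ratio of 163 with a 95% counting interval of 55.3 to 796, and the KO-labelled libraries held 6 against 307, a ratio of 89.6 (40.7 to 246). With 624 summed counts Zfp811 passed the minimum of 600 through its LPS libraries, so its rise helped to admit it and is a description. These intervals, from an exact binomial, cover counting error only, and the library with 0 counts allows up to 0.107 CPM, 3 counts.

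Zfp800, a C2H2 factor known from pancreatic development, had the next largest rise, from 14.8, 14.8 and 15.7 CPM to 138, 170.5 and 155 CPM in WT (log2 fold change 3.35 ± 0.0816 SE, adjusted p = 5.42e-16). In KO-labelled cells it went from 20.2, 18.5 and 18.4 to 189, 182 and 198 CPM (3.32 ± 0.0803, adjusted p = 4.05e-16). Its level after LPS exceeded its level in PBS in every library. Zfp281, a GC box-binding repressor known from embryonic stem cells, rose from 14.6, 12.8 and 13.7 to 56.1, 63.8 and 59.9 CPM in WT (2.13 ± 0.0819, adjusted p = 2.33e-13) and from 20.3, 16.6 and 19.2 to 93.2, 88 and 93.7 CPM in KO-labelled cells (2.29 ± 0.0793, adjusted p = 4.86e-14). Neither gene had fractional counts in any library, so their reads were not divided with other genes.

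Zfp619, a KRAB gene with 33 fingers, rose from 3.07, 3.83 and 5.11 to 16.1, 25.2 and 22.9 CPM in WT (2.42 ± 0.185, adjusted p = 2.23e-08). Zfp658 and Zfp719, which neighbour each other on chromosome 7, rose together. Zfp658 went from 3.15, 2.61 and 2.4 to 12.1, 11 and 12.3 CPM in WT (2.12 ± 0.129, adjusted p = 1.41e-10) and from 3.15, 2.32 and 3.33 to 17.9, 16.5 and 18.8 CPM in KO-labelled cells (2.59 ± 0.122, adjusted p = 3.35e-12). Zfp719 went from 4.3, 3.9 and 3.36 to 11.9, 12.4 and 12.9 CPM in WT (1.69 ± 0.109) and from 3.75, 3.16 and 3.83 to 20.9, 21.3 and 24 CPM in KO-labelled cells (2.62 ± 0.104, adjusted p = 3.03e-13). Both genes left no overlap between PBS and LPS libraries under either label. Zfp972 rose from 11.6, 10.6 and 10.5 to 83.7, 98.3 and 97.6 CPM in WT (3.10 ± 0.0869, adjusted p = 3.27e-15), but 56.5% of its 50-base transcript windows occur in transcripts of other genes, so its values are uncertain.

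The promoters of the 6 members that rose in WT under each of the 5 scalings are shown so that the sequence next to their start sites can be read. Each window runs from 250 bases before to 50 bases after a RefSeq start site on GRCm38.p6, printed on the gene's strand, with matched motifs in capitals. The windows are chr17:32809882-32810181 (minus strand) for Zfp811, chr6:28397956-28398255 (minus strand) for Zfp800, chr2:177925601-177925900 (minus strand) for Zfp972, chr7:39517516-39517815 (plus strand) for Zfp619, chr1:136624651-136624950 (plus strand) for Zfp281 and chr7:43562120-43562419 (plus strand) for Zfp658.
Zfp811: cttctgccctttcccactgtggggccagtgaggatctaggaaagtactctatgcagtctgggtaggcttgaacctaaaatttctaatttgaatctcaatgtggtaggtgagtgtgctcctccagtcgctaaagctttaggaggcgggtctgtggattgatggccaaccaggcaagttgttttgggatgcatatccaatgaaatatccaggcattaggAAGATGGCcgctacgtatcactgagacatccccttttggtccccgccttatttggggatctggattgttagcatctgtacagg
Zfp800: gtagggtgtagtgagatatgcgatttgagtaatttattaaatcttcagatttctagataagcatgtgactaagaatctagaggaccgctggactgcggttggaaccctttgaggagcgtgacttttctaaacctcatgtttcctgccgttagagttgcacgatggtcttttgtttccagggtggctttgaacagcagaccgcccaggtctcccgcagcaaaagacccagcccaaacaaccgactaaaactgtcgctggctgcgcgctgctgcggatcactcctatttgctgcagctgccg
Zfp972: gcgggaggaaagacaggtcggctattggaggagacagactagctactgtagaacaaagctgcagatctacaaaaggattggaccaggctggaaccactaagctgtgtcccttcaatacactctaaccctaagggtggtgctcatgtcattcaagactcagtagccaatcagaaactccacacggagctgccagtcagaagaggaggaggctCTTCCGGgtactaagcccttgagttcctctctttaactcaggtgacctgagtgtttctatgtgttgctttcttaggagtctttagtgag
Zfp619: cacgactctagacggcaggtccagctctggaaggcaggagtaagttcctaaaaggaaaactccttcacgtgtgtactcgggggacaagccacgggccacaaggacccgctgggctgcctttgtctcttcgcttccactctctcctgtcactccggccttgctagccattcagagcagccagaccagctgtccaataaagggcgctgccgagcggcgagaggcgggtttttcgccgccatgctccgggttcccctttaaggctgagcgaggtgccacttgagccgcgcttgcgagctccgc
Zfp281: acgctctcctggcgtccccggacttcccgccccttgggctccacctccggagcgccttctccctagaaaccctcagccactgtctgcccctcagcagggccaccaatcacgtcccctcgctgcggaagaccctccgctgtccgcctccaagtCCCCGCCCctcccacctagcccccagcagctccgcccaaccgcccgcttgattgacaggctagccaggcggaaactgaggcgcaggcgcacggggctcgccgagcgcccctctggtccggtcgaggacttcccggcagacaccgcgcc
Zfp658: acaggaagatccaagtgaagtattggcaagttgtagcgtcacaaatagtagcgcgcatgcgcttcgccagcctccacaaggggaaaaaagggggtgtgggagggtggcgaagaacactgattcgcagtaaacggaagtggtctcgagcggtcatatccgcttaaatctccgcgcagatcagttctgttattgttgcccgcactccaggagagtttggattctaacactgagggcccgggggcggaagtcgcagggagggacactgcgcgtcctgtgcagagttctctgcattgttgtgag
The capitals mark a YY1 core match in Zfp811, a GC box match in Zfp281 and an ETS core match in Zfp972, and no searched motif occurred in these windows of Zfp800, Zfp619 and Zfp658. A second window listed for Zfp800, at chr6:28261875-28262174 (minus strand), held none either.

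Motifs were searched on both strands in the 179 members that matched a RefSeq promoter, by gene ID. The ETS core CCGGAAG occurred in 41 members (22.9%), against 9.93% of 27025 genes with a window. The YY1 core AANATGGC, added to the search after these windows had been seen, occurred in 29 members (16.2%) against 6.96% of all genes, and the GC box GGGCGGGG in 48 (26.8%) against 19.6%. The NF-kappaB consensus occurred in 6 members (3.35%) against 5.14%, the AP-1 site TGANTCA in 6 (3.35%) against 8.97%, and the ISRE core in 4 (2.23%) against 3.99%. Among the 47 members with a window that rose in WT, 2 held the NF-kappaB consensus, 3 the ISRE core and 0 the AP-1 site. Among the 82 that fell, these numbers were 2, 1 and 2. The median GC content of the members' windows was 57%, and 52.7% over all windows. A match describes letters in a 300-base window and is no evidence of binding.

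The largest falls in fold were those of Zfp395, known for binding the regulatory region of the huntingtin gene, and of its paralog Zfp704. Zfp395 stood at 29.6, 29 and 28.5 CPM in WT PBS and at 0.578, 0.512 and 0.733 CPM after LPS (-5.56 ± 0.146). In KO-labelled cells it stood at 33.2, 33.1 and 35 and 0.123, 0.184 and 0.497 CPM (-6.95 ± 0.169). After LPS the 3 WT libraries together held 32 of its counts and the 3 KO-labelled libraries 13, a fall by a ratio of 47.7 (95% counting interval 33.7 to 69.9) and 126 (73.8 to 238). It passed the minimum through its PBS libraries, which held 5304 counts in all, so its fall is a description, and the same holds for Zfp704 (9481 counts in PBS and 266 after LPS), Zfp469 (1290 and 130), Zfp532 (1188 and 101), Zfp398 (1187 and 125) and Zfp251 (966 and 142). Zfp704 stood at 48.8, 46.5 and 49.9 CPM in WT PBS and 3.53, 2.33 and 2.71 CPM after LPS (-4.08 ± 0.108). In KO-labelled cells it stood at 67.5, 61.4 and 62.2 and 2.15, 2.2 and 2.74 CPM (-4.75 ± 0.112). Both paralogs fell with no overlap of libraries under both labels, and Zfp395 held 2 and 3 counts in KO-labelled LPS replicates 1 and 2, at or under the floor of 3, so its fitted fold change in KO-labelled cells and its interaction depend on the small count added in the fit.

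Zfp362, a C2H2 gene with 6 fingers, fell from 27.3, 23.5 and 25.4 to 6.19, 4.5 and 6.32 CPM in WT (-2.16 ± 0.106, adjusted p = 6.92e-12) and from 27.8, 31 and 29.5 to 3.5, 3.86 and 3.86 CPM in KO-labelled cells (-2.98 ± 0.115, adjusted p = 2.19e-13). Zfp469, whose human counterpart is known from brittle cornea syndrome and collagen genes, fell from 7.34, 6.72 and 7.79 to 1.39, 0.968 and 0.959 CPM in WT (-2.72 ± 0.185). The fibroblast marker sum was 66.0 to 78.3 CPM in WT PBS and 107.7 to 120.5 CPM in WT LPS, and the part of fibroblasts in the values of Zfp469 was not tested. Zfp532, whose human counterpart is a fusion partner of NUT in carcinoma, fell from 6.47–7.48 to 1.01–1.68 CPM in WT (-2.48 ± 0.172). Zfp398 fell from 5.97–6.62 to 1.31–1.52 CPM (-2.15 ± 0.137), and in KO-labelled cells Zfp251, which has the KRAB pattern, fell from 5.3–6.77 to 0.614–1.31 CPM (-2.52 ± 0.207). None of these members overlapped between PBS and LPS libraries.

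**Figure D2:**
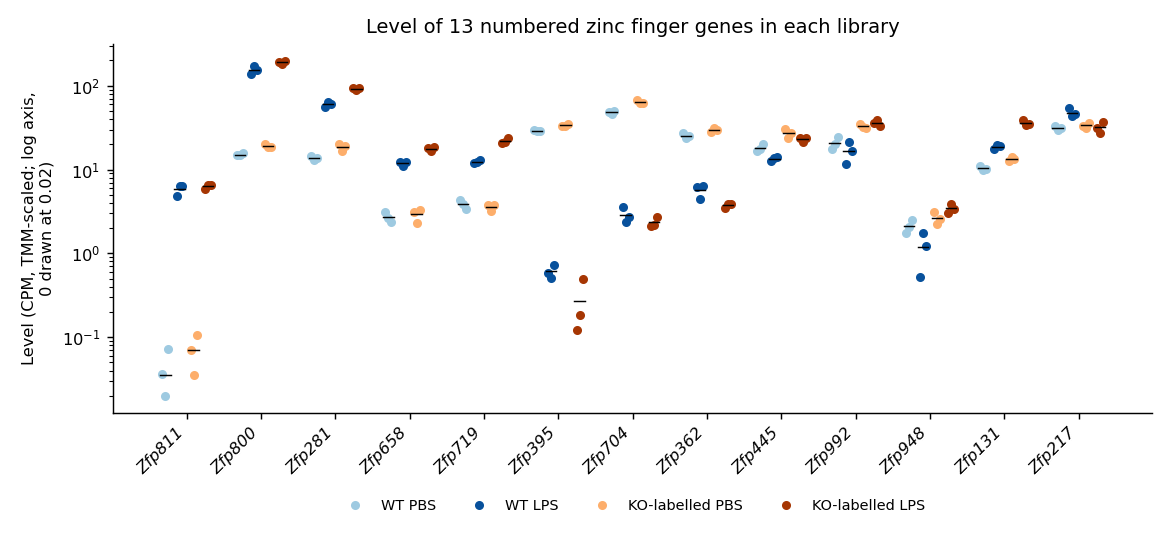
Level in CPM on a log axis (TMM-scaled library sizes, 0 drawn at 0.02) of 13 members in each library; points are libraries, short black lines the mean of 3, and colours the 4 groups. Zfp811 and Zfp800 rise and Zfp395 and Zfp704 fall with LPS under both labels, while Zfp445, Zfp992 and Zfp131 are higher in KO-labelled libraries at either treatment.

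Grouped by role, the members moved both ways, and the counts below are read against the 36.5% of all genes that rose and 40.2% that fell in WT, and 38.8% and 41.1% in KO-labelled cells; a share near these is no result about a list. Of 25 transcription regulators measured from the list, 11 rose and 11 fell in WT, and 10 rose and 11 fell in KO-labelled cells. Zfp143, an activator that helps anchor promoter loops, rose from 9.29–10.2 to 16.4–18.4 CPM in WT (0.83, adjusted p = 1.36e-07). Zfp703, a corepressor amplified in breast cancer, fell from 75.8–86.7 to 29.9–41.6 CPM (-1.21, adjusted p = 3.26e-09), and Zfp318, known for IgD expression in B cells, fell from 15.2–18.3 to 7.16–8.21 CPM (-1.11). The B cell genes Cd22 (-0.51, adjusted p = 8.06e-06) and Cd79b (-2.70, adjusted p = 3.26e-06) fell beside it in WT, and their part in its fall was not tested. Of 11 members that act on RNA, ribosomes or protein turnover, 3 rose and 5 fell under each label. Zfp207 rose from 90.6–95.7 to 183–212 CPM (1.10, adjusted p = 4.49e-11) and Zfp622, which takes part in maturation of the large ribosomal subunit, from 17.7–18.2 to 22.6–23.8 CPM (0.37). Zfp91, a ubiquitin ligase of the non-canonical NF-kappaB pathway, stood at 95.2–106 CPM in WT PBS and 97.8–102 CPM after LPS and passed no test (adjusted p = 0.856). Zfp598, which marks stalled ribosomes, was likewise not called (-0.14, adjusted p = 0.153).

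Of the 6 measured silencers of repeats and imprints, 4 fell and 1 rose in WT, and 5 fell and 1 rose in KO-labelled cells. Among these, Zfp809 (709 counts in PBS and 223 after LPS), Zfp932 (604 and 239) and Zfp961 (816 and 249) passed the minimum mainly through their PBS libraries, so their changes with LPS are a description. Zfp809, which silences murine leukaemia virus sequences, fell from 3.76, 3.58 and 4.43 to 2.31, 1.54 and 2.42 CPM in WT (-0.91 ± 0.186). Zfp445, a guardian of imprints, fell from 16.7, 17.5 and 20.02 to 12.6, 13.7 and 14 CPM (-0.43 ± 0.1, adjusted p = 0.000924). Zfp429 was the member that rose, from 5.21, 4.76 and 4.97 to 8.27, 9.74 and 11.3 CPM (0.97 ± 0.117, adjusted p = 9.82e-07). Split by the KRAB pattern, 53 of 104 members with it fell in WT and 19 rose (median -0.40), and 47 of 109 without it fell and 36 rose (median -0.14).

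Among 26 tested partners of KRAB silencing, 8 rose and 10 fell in WT, beside 36.5% and 40.2% of all genes. Trim28, the corepressor itself, stood at 67.5–74.3 CPM in WT PBS and 61.8–82.1 CPM after LPS and was not called (adjusted p = 0.798). In KO-labelled cells, where 10 of the 26 rose and 9 fell, it rose from 65.7–69.8 to 76.7–80.9 CPM (0.22, adjusted p = 0.0298), and the interaction was not called (adjusted p = 0.194). Setdb1, the histone H3K9 methyltransferase it recruits, fell from 38.7–44.2 to 20.1–23.8 CPM (-0.92, adjusted p = 1.1e-08). Dnmt1, the maintenance DNA methyltransferase, fell from 124–136 to 22.2–29.7 CPM (-2.35), and Cbx3, a heterochromatin protein, from 21.5–22.4 to 5.84–6.26 CPM (-1.85). In the other direction, Hdac1, a histone deacetylase, rose from 34.4–36.9 to 108–129 CPM (1.74) and Resf1, a regulator of SETDB1, from 15.7–20.6 to 66.3–78.2 CPM (1.97).

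How far the members fall depends on the scaling, because the scaling factors differ between PBS and LPS libraries: TMM factors were 1.26 to 1.31 in PBS and 0.744 to 0.808 in LPS. Their summed level under TMM was 2521, 2516 and 2601 CPM in WT PBS and 2928, 2870 and 2877 CPM in WT LPS. On library totals alone the same sums were 3171, 3197 and 3310 CPM in PBS and 2299, 2318 and 2322 CPM in LPS, so the direction of the sum turned with the scale. The largest gains in mean CPM under TMM were those of Zfp800 (139.1 CPM), Zfp207 (106.9 CPM) and Zfp710 (104.8 CPM), and the largest losses those of Zfp703 (-45.8 CPM) and Zfp704 (-45.5 CPM). Without those 3 gainers, a choice made from these values that can only lower the LPS sum against PBS, the WT sums were 2342, 2342 and 2428 CPM in PBS and 2404, 2336 and 2354 CPM in LPS and overlapped, and so did the KO-labelled sums at 2645 to 2766 CPM and 2733 to 2871 CPM. In KO-labelled libraries the sum was 2964, 2836 and 2891 CPM in PBS and 3432, 3286 and 3442 CPM in LPS under TMM, and on totals alone it was 3895, 3717 and 3776 CPM in PBS and 2596, 2484 and 2560 CPM in LPS.

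Counting by gene, library totals alone gave 21 members higher and 170 lower in WT (9.81% and 79.4%, beside 18.4% and 68.4% of all genes). In KO-labelled cells they gave 18 and 172 (8.41% and 80.4%, beside 18.3% and 69.5%). The median of all genes moved by -0.66 in WT and -0.80 in KO-labelled cells against TMM, and the members moved with it. Upper-quartile scaling lay between, with 33 higher and 142 lower in WT, beside 26.1% and 54% of all genes. Scaling on the summed counts of 12 housekeeping genes gave 6 and 202, beside 9.57% and 85.5% of all genes, and in that sum Actb alone went from a mean of 4980 to 26636 CPM in WT. A scaling shifts every gene alike, so the distance of the members' median from that of all genes, -0.21 in WT, is the same under each by construction and is no sign of stability. Under all 5 scalings 95 members stayed lower and 6 higher in WT, and 101 lower and 7 higher in KO-labelled cells, Zfp719 being the additional one. Of the members called higher by TMM, 43 in WT and 47 in KO-labelled cells were called lower by at least 1 other scaling, and with housekeeping scaling left aside these were 14 and 19. Neither the calls kept under all 5 scalings nor the turns were counted over all genes, so they are a description. Each scaling shifts all genes alike, so these turns follow from the size of its shift, and the 6 and 7 members named above were not among them.

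**Figure D3:**
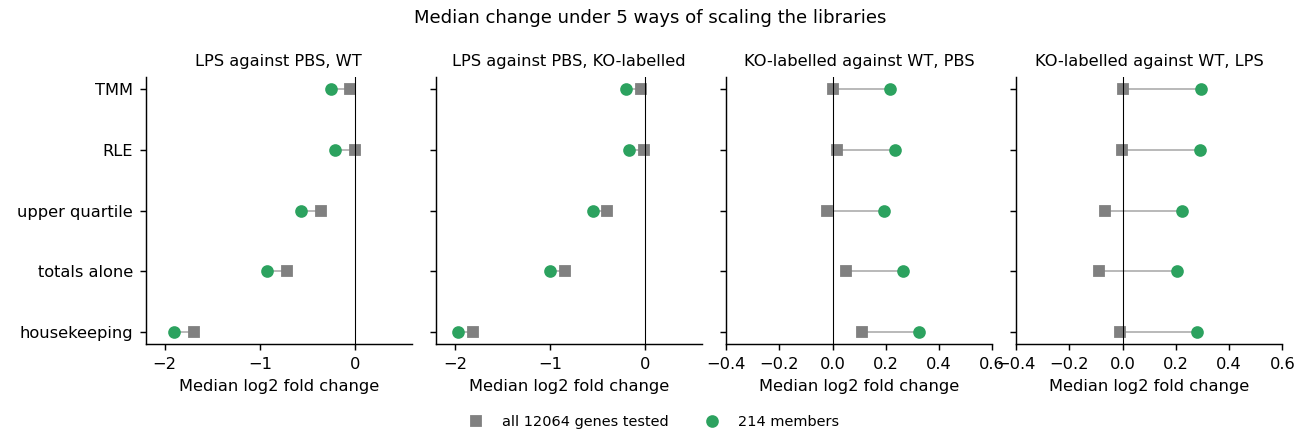
Median log2 fold change of the 214 members (green circles) and of all 12064 genes tested (grey squares) in 4 comparisons, 1 panel each, under 5 ways of scaling the libraries. In the LPS panels both medians slide left together from TMM to housekeeping scaling, since a scaling shifts all genes alike and keeps the gap between the medians.

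**Figure D4:**
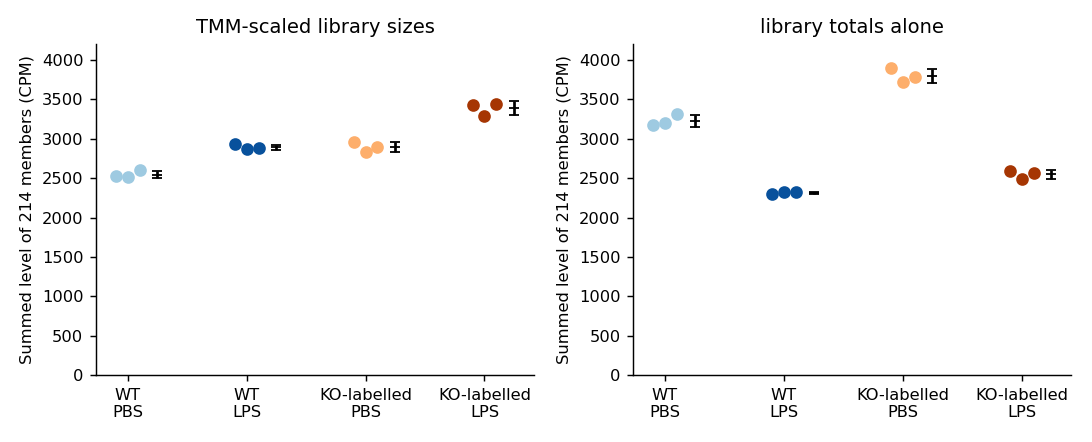
Summed CPM of the 214 members in each library (points) with the mean and SD of 3 libraries (black bars), under TMM-scaled library sizes and under library totals alone. The LPS libraries lie above the PBS libraries on the left and below them on the right, and the KO-labelled libraries lie above the WT libraries of the same treatment in both panels.

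The second question was how the members differ between genotype labels. In PBS, 68 members were higher in KO-labelled macrophages and 1 was lower, 31.8% and 0.467% of the members, where 12.3% of all genes tested were higher and 13% lower. The median log2 fold change was 0.22 over the members and 0.00 over all genes, and the fold change was above 0 in 186 of 214 members. After LPS, 89 members were higher and 16 lower, 41.6% and 7.48%, beside 22.1% and 19.3% of all genes, with medians of 0.29 and 0.00. Calls over 1 on the log2 scale were made in 0 members in PBS, where 0.597% of all genes were higher and 2.71% lower by as much. After LPS they were made in 3 members higher and 1 lower, 1.4% and 0.467% beside 1.57% and 3.15% of all genes. Under all 5 scalings 61 members stayed higher and 1 lower in PBS, and 68 higher and 14 lower after LPS, counts that were not made over all genes. On totals alone 68 were higher and 21 lower after LPS (31.8% and 9.81%, beside 15.9% and 26.1%). Without KO-labelled PBS replicate 1 the higher calls in PBS dropped to 44, without KO-labelled PBS replicate 3 they were 65, without WT LPS replicate 1 the LPS counts were 81 and 13 with a median of 0.27, and without KO-labelled LPS replicate 1 the lower calls were 10. The calls of all genes in these fits are not given here, so the drops are no result about the members alone. Of the higher calls, 47 were made under both treatments, 69.1% of those in PBS and 52.8% of those after LPS. Under both treatments 0 members were called lower, and 3 were called in opposite directions. The differences between labels in PBS and after LPS had a Pearson r of 0.43 across the 214 members. This overlap was not counted over all genes, so it is a description.

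In PBS the named members with the largest differences were Zfp950, Zfp677, Zfp738, Zfp995 and Zfp992, and apart from Zfp950 each has the KRAB pattern. Zfp950 stood at 2.68, 3.18 and 3.68 CPM in WT and 4.38, 6.42 and 6.02 CPM in KO-labelled libraries (0.82 ± 0.148, adjusted p = 0.000816). Zfp738 stood at 3.73, 4.11 and 3.86 and 6.44, 6.35 and 6.38 CPM (0.71 ± 0.113, adjusted p = 0.000258). Neither overlapped between labels. Zfp677, at 1.95, 2.4 and 2.07 and 4.41, 2.91 and 3.47 CPM (0.75 ± 0.189, adjusted p = 0.00851), lost its call without KO-labelled PBS replicate 1 (0.60, adjusted p = 0.0504). Zfp995, at 1.52, 1.75 and 2.11 and 3.46, 2.77 and 2.34 CPM (0.67 ± 0.187, adjusted p = 0.0156), lost it without WT PBS replicate 1 (0.59, adjusted p = 0.0635) and without KO-labelled PBS replicate 1 (0.54, adjusted p = 0.0798). Both also lost it under the GC correction described below. Zfp677 held 486 counts in PBS and 142 in LPS libraries and Zfp995 held 393 and 251, close to the minimum of summed counts. Higher counts in KO-labelled libraries helped to admit both, so their differences between labels are a description. Zfp445, the imprint guardian, stood at 16.7, 17.5 and 20.02 CPM in WT and 30.4, 24.1 and 27.3 CPM in KO-labelled libraries (0.59 ± 0.0899, adjusted p = 0.00018). The member that was lower was Zfp972, at 11.6, 10.6 and 10.5 and 6.75, 7.58 and 6.34 CPM (-0.66 ± 0.0984, adjusted p = 0.000153), a gene 2.98 Mb from Ythdf1 on chromosome 2. After LPS it was higher in KO-labelled libraries (0.28), and its neighbour Zfp971, 2.87 Mb from Ythdf1, was not called at either treatment, while Zfp970, 3.43 Mb away, was called higher in PBS (0.32).

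After LPS, Zfp948 had the largest higher call, at 0.52, 1.76 and 1.24 CPM in WT and 3.01, 3.92 and 3.42 CPM in KO-labelled libraries (1.54 ± 0.285, adjusted p = 0.000426), with the lowest WT value in replicate 1. Without that library its log2 fold change was 1.20 (adjusted p = 0.000611). Zfp948 held 399 counts in PBS and 231 in LPS libraries, close to the minimum of summed counts. Higher counts in KO-labelled libraries helped to admit it, so its difference between labels is a description. Zfp131, a BTB-domain factor, stood at 17.5, 19.8 and 19.1 and 38.8, 33.9 and 34.8 CPM (0.93 ± 0.0776, adjusted p = 1.96e-07). The values of Zfp131 were close within each label and far apart between labels. Zfp758 stood at 1.74, 1.99 and 2.71 and 4.42, 4.41 and 3.61 CPM (0.95 ± 0.18, adjusted p = 0.000558). The paralogs Zfp992 and Zfp991 stood at 11.5–21.2 and 26.7–36.2 CPM in WT and at 33–39.3 and 59.5–65.8 CPM in KO-labelled libraries (1.13 ± 0.174 and 1.02 ± 0.1). With 43.0% and 82.2% of their 50-base windows found in other genes' transcripts, counts could be exchanged between them.

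Of the 16 lower calls after LPS, Zfp395 was at the low levels given above, and the largest with a mean of at least 2 CPM was Zfp526 (4.21–7.06 CPM in WT, 2.82–3.44 CPM in KO-labelled, -0.82 ± 0.182, adjusted p = 0.00188). Zfp217, an oncogenic corepressor partner, stood at 54, 43 and 45.5 CPM in WT and 31.6, 27.1 and 37.1 CPM in KO-labelled libraries (-0.57 ± 0.106, adjusted p = 0.000436). Zfp777 (-0.63), Zfp362 (-0.60) and Zfp949 (-0.48) were also lower, with no overlap of libraries. By role, beside 12.3% of all genes higher and 13% lower in PBS and 22.1% and 19.3% after LPS, 11 of 25 transcription regulators were higher in PBS and 0 lower, and 9 were higher and 3 lower after LPS. Of the members acting on RNA, ribosomes or protein turnover, 3 of 11 were higher in PBS, and after LPS 4 were higher and 2 lower. Of the silencers of repeats and imprints, 3 of 6 were higher in PBS and 2 after LPS, with 0 lower. Of the 26 KRAB silencing partners, 4 were higher and 1 lower in PBS, and 6 higher and 4 lower after LPS, where Trim28 (0.19, adjusted p = 0.104) and Setdb1 (0.10, adjusted p = 0.378) were not called.

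Members with the KRAB pattern had the larger median difference. In PBS 42 of 104 KRAB members were higher and 0 lower (median 0.32), and 26 of 109 others were higher and 1 lower (median 0.15). After LPS the counts were 51 and 4 (median 0.46) against 38 and 12 (median 0.17). No test was made between these classes, which also differ in base composition. The members are poor in G and C, with a median GC content of 45.8% over their transcripts beside 50.5% over all genes, and the difference between labels moved with GC content in other genes too. In the lowest tertile of GC content (under 47.2%), 57 of 117 members were higher in PBS and 1 lower (median 0.35), and 790 of the 3845 other genes there were higher and 290 lower (median 0.09). After LPS the members of that tertile counted 71 higher and 2 lower (median 0.48) and the others 1519 and 324 (median 0.19). In the highest tertile (over 53.5%), 3 of 50 members were higher and 0 lower in PBS, and 4 higher and 10 lower after LPS (median 0.02), while the others there had a median of -0.15 after LPS.

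**Figure D5:**
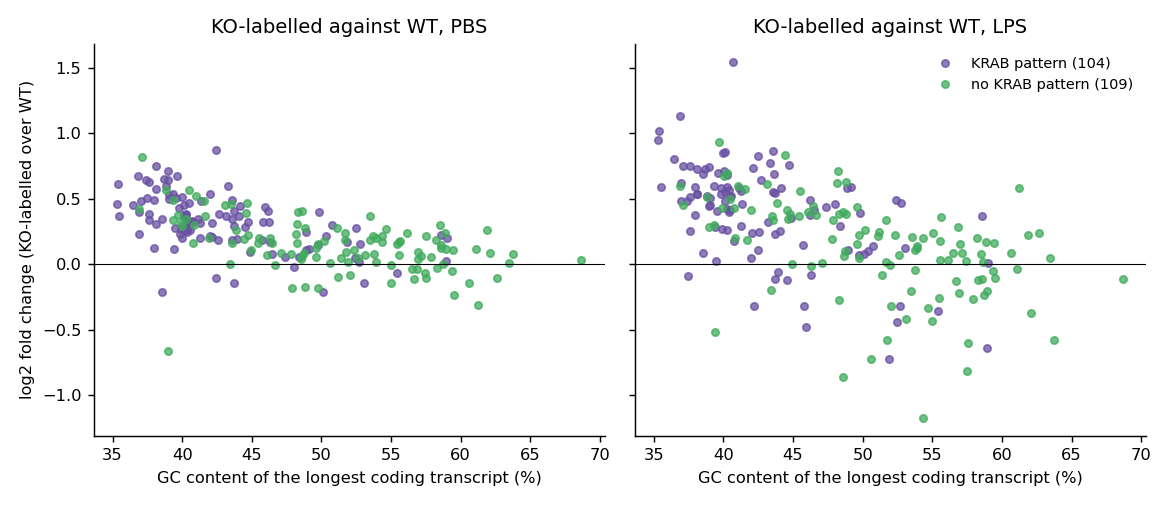
Log2 fold change (KO-labelled over WT, TMM scaling) against the GC content in percent of the longest coding transcript, in PBS (left) and after LPS (right); each point is 1 of 213 members, purple with the KRAB pattern (104) and green without it (109). Points above 0 crowd at low GC content, and after LPS most members below 0 lie toward higher GC content.

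With a correction that removes the trend of each library with GC content, the excess shrank and remained. In PBS 47 members were higher and 2 lower (22% and 0.935%, beside 11.1% and 12.7% of all genes), and after LPS 63 were higher and 8 lower (29.4% and 3.74%, beside 20.5% and 17.7%). The members' medians went from 0.22 to 0.16 in PBS and from 0.29 to 0.20 after LPS, with 0.01 and 0.02 over all genes. Under that correction the KRAB and other members had nearly the same median, 0.19 and 0.15 in PBS and 0.20 and 0.20 after LPS, and the lowest and highest tertiles of members had 0.18 and 0.18 in PBS and 0.20 and 0.20 after LPS. The part of base composition beyond this correction was not tested. Outside the members, the 130 other tested genes with the KRAB pattern counted 21 higher and 0 lower in PBS (median 0.33) and 19 and 0 after LPS (median 0.34). Their higher calls were 16.2% in PBS and 14.6% after LPS, beside 12.3% and 22.1% of all genes. With LPS in WT 6 of them rose and 77 fell (median -0.89), 4.62% and 59.2% beside 36.5% and 40.2%.

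Sequence shared between genes was the other property examined. Of 213 members with transcripts, 53 had no 50-base window in common with another gene's transcripts, 111 shared up to 10% and 49 shared more. Counts by class are read against 12.3% of all genes higher and 13% lower in PBS, and 22.1% and 19.3% after LPS. In PBS 14 of 53 (median 0.18), 33 of 111 (median 0.23) and 21 of 49 (median 0.28) were higher, with 0, 0 and 1 lower. After LPS these were 18 (median 0.19), 48 (median 0.32) and 23 (median 0.40) higher, with 8, 8 and 0 lower. The median GC content of the classes was 48.9%, 45.4% and 41.3%, so the classes differ in composition too. Fractional counts, the mark of reads divided between genes, occurred in 136 members and in every library in 71.

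The members lie on 20 chromosomes, with 49 on chromosome 7 and 29 on chromosome 17, and 108 of them lie within 200 kb of another member, in 30 runs. Counts in runs are small and are read against the same shares of all genes, and for LPS in WT against 36.5% that rose and 40.2% that fell. In the run of 8 members on chromosome 13 (GRCm38, chr13:67194506-67729178), which holds Zfp429, Zfp738 and Zfp455, 5 were higher in KO-labelled PBS libraries and 7 after LPS with 0 lower, and with LPS in WT 4 rose and 3 fell. In the run of 6 on chromosome 17 (chr17:21383707-21664966), which holds Zfp677, Zfp948 and Zfp51, 2 were higher in PBS and 4 after LPS with 0 lower, at medians of 0.34 and 0.71. In the run of 5 on chromosome 6 (chr6:47835633-48086986), which holds Zfp398, Zfp282, Zfp212, Zfp777 and Zfp746, the labels differed by treatment, with 2 higher and 0 lower in PBS and 0 higher and 3 lower after LPS (median -0.35). In the run of 4 on chromosome 17 (chr17:22197265-22456689), 3 were higher at each treatment. Other runs did not do so: of the 7 on chromosome 17 that include Zfp811 (chr17:32765496-33110707) 1 was higher at each treatment, and of the 4 that include Zfp628 on chromosome 7 (chr7:4915181-5033226) 0 were. In total 34 of 108 members in runs and 34 of 106 outside them were higher in PBS, and 47 and 42 after LPS.

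The last comparison asked whether the LPS response itself differed between labels, as an interaction term. It was called in 25 members, with 13 responses higher in KO-labelled cells and 12 lower, or 6.07% and 5.61% of the members beside 9.78% and 8.26% of all genes tested, and over 1 on the log2 scale in 1 and 2 members, 0.467% and 0.935% beside 1.54% and 1.15%. The median of the interaction was 0.05 on the log2 scale, and -0.09 on totals alone and -0.07 under housekeeping scaling. Zfp719 rose more in KO-labelled cells (0.94 ± 0.154, adjusted p = 0.0006), and so did Zfp131 (0.56 ± 0.113, adjusted p = 0.00282) and Zfp972 (0.94 ± 0.124, adjusted p = 8.85e-05), and each was called under all 5 scalings. Zfp949 rose from 2.75, 2.86 and 3.4 to 6.3, 8.37 and 7.67 CPM in WT and from 4.3, 4.04 and 3.86 to 5.28, 5.45 and 5.35 CPM in KO-labelled cells (-0.91 ± 0.18, adjusted p = 0.00231). Zfp217 rose with LPS in WT (0.60) and was not called in KO-labelled cells (-0.07), and the difference passed the test (-0.67 ± 0.146, adjusted p = 0.00513). Zfp770 fell further in KO-labelled cells, from 4.06, 3.72 and 3.9 to 0.798, 1.04 and 0.871 CPM, than in WT, from 2.35, 3.15 and 2.79 to 1.16, 1.31 and 1.41 CPM (-1.01 ± 0.271, adjusted p = 0.0172), but lost the call without KO-labelled LPS replicate 1 (-0.93, adjusted p = 0.0524).

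The largest interactions of either sign among the named members depended on single libraries. For Zfp395 (-1.39 ± 0.398, adjusted p = 0.0237) the call was lost without WT LPS replicate 3 (-1.23, adjusted p = 0.0824), KO-labelled LPS replicate 1 (-1.05, adjusted p = 0.125) or KO-labelled LPS replicate 2 (-1.18, adjusted p = 0.0737). For Zfp948 (1.21 ± 0.369, adjusted p = 0.032) it was lost in 7 of 12 fits that left out 1 library (1.06 to 1.25, adjusted p = 0.0518 to 0.0891), on totals alone and under housekeeping scaling. The 7 libraries were replicates 2 and 3 of WT PBS, of KO-labelled PBS and of KO-labelled LPS, and replicate 3 of WT LPS. The number of higher interactions was as low as 5 without WT PBS replicate 3 or KO-labelled PBS replicate 2 or 3, 6 without WT PBS replicate 2, 7 without KO-labelled LPS replicate 1 and 8 without KO-labelled PBS replicate 1. The number of lower ones was 7 without KO-labelled LPS replicate 1 or 2. Without WT LPS replicate 1 the counts were 14 and 12, and the interaction of Zfp948 was 0.86 (adjusted p = 0.0493). Higher counts in KO-labelled libraries helped to admit Zfp948, so its interaction is a description too.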

How the data were processed

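Total RNA of 12 macrophage cultures, 3 libraries in each of 4 groups that the study's methods call biological replicates, was sequenced on a BGISEQ-500 as single-end reads of 50 bases. The authors deposited 1 table of expected counts per library, estimated counts per gene that need not be whole and are not scaled between libraries. The submitters' processing notes name Bowtie2, RSEM 1.3.1 and GRCm38.p6, the study's methods name STAR and HTSeq instead, and the use of strand is not given in the sources used here. Between 24.6% and 26.9% of values in a library were fractional. Reads that fit several genes are shared out by estimation in such counts, which bears on paralogous zinc finger genes.

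Counts were rounded to whole numbers, genes were filtered with filterByExpr, and edgeR 4.0.16 (R 4.3.3) was fitted to all 12 libraries with TMM scaling, its quasi-likelihood test giving log2 fold changes with SE and Benjamini-Hochberg adjusted p over all 12064 genes tested, called under 0.05. A self-test on simulated counts was run first. Named members were the largest changes of each sign among calls whose higher group averaged 2 CPM or more and, other than for the interaction, no overlap between groups, together with the role lists, the members highest per transcript length and those nearest the minimum. Members and lists were chosen with earlier results of these data known. Promoters came from RefSeq on GRCm38.p6. Coding sequences, transcript lengths, GC content and 50-base windows came from GENCODE transcripts. C2H2 fingers and KRAB boxes were matched by pattern, and runs joined members within 200 kb. The GC correction removed a lowess trend (span 0.3) of each library over genes with a GC value, 98.5% of those tested. Alternatives were 4 other scalings, DESeq2 1.42.0, other filters, thresholds and minimums, a replicate block, the GC correction and leaving out each library. Deviations of same-numbered libraries of different groups had correlations from -0.19 to 0.20, and those of replicate 2 were all positive, from 0.04 to 0.20. Differently numbered libraries of different groups had correlations from -0.30 to 0.31.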

Additional observations from a re-analysis of the deposited data

Results flagged for a closer look

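The response to LPS differed between genotype labels in 25 members by the interaction test of edgeR, 13 with a higher and 12 with a lower response in KO-labelled cells. That is 6.07% and 5.61% of the members, beside 9.78% and 8.26% of all genes tested, and the higher calls numbered as few as 5 with 1 library left out. The log2 response was higher in KO-labelled cells for Zfp948 (1.21), Zfp972 (0.94), Zfp719 (0.94), Zfp523 (0.89), Zfp608 (0.80), Zfp131 (0.56), Zfp715 (0.49), Zfp382 (0.47), Zfp488 (0.40), Zfp275 (0.38), Zfp622 (0.35), Zfp639 (0.33) and Zfp263 (0.31). It was lower for Zfp395 (-1.39), Zfp770 (-1.01), Zfp949 (-0.91), Zfp362 (-0.81), Zfp398 (-0.72), Zfp526 (-0.71), Zfp704 (-0.67), Zfp217 (-0.67), Zfp777 (-0.66), Zfp212 (-0.60), Zfp219 (-0.46) and Zfp710 (-0.41). Each value is the difference of the LPS response between labels on the log2 scale. That of Zfp948 is a description, since higher counts in KO-labelled libraries helped to admit this gene.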

How the results depend on the processing

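Of 46 calls of named members, 41 held in direction and call under the other scalings, the fit without a filter, DESeq2, the fit on only the libraries compared, the replicate block, the GC correction and each library left out, 0 reversed and 5 were lost under at least 1 of these. The fit on only the libraries compared was not made for the interaction, which uses all 4 groups. The 5 lost were Zfp677 and Zfp995 between labels in PBS, and Zfp395, Zfp770 and Zfp948 for the interaction. Zfp677 (0.51, adjusted p = 0.0508) and Zfp995 (0.47, adjusted p = 0.0728) were lost with the GC correction in edgeR. The causes were not tested. With at least 10 counts in every library 7 of the 46 calls were not tested, and in the fit reported 16 were not past 1 on the log2 scale, and 9 were of members under 1200 summed counts.

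Members called higher and lower with LPS in WT were 33 and 142 by upper-quartile scaling, 21 and 170 by totals alone, 6 and 202 by housekeeping scaling, and 18 and 39 when a change over 1 on the log2 scale was asked. In KO-labelled cells these were 37 and 135, 18 and 172, 7 and 203, and 18 and 36. A minimum of 1200 summed counts, which keeps fewer members, gave 65 lower in WT and 66 in KO-labelled cells. Between labels in PBS, lower calls were 2 with the GC correction, 2 with that and the block, 3 with only the libraries compared and 2 with a minimum of 300, and 0 members were higher or lower by over 1. After LPS, lower calls were 8, 9 and 9 in the first 3 of these settings, and 3 members were higher and 1 lower by over 1. The interaction counted 8 higher by upper-quartile scaling, 5 higher and 24 lower by totals, 5 higher by housekeeping scaling, and 1 higher and 2 lower over 1. Its median turned to -0.09 by totals and -0.07 by housekeeping scaling. DESeq2 gave 56 and 92 in WT, 58 and 97 in KO-labelled cells, 66 and 1 in PBS, 84 and 16 after LPS and 12 and 12 for the interaction.

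Leaving out 1 library at a time gave 44 to 75 higher calls between labels in PBS, 10 to 17 lower calls after LPS, and 5 to 14 higher and 7 to 14 lower interactions. With a replicate block the counts were 54 and 99 in WT, 57 and 104 in KO-labelled cells, 65 and 1 in PBS, 87 and 15 after LPS and 12 and 12 for the interaction. The sample titles do not state whether the shared numbers pair the samples.

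Members near 2 CPM rest on few counts, so their fold changes are less precise than those of abundant members. Paralogs with shared 50-base windows can exchange counts, and the scaling decides how many members fall with LPS. With 3 libraries a group, p-values measure only the spread between these libraries.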
